A study of Homo sapiens with 19 samples.

Results

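The epithelial-mesenchymal transition (EMT) that the transcription factor Twist sets off was followed in control cells, by comparing 3 EPI control with 3 MES control RNA-seq libraries, which are 6 of the 19 samples of the series. The members are the splicing events listed for that comparison and the genes they belong to, 77045 events of 5 types of which 67451 had enough reads to be tested, and 10323 genes whose junction reads were tested for level. HMLE/Twist-ER cells are human mammary epithelial cells, immortalized with Tert, with a Twist-estrogen receptor fusion that tamoxifen turns on. EPI control cells were untreated and carried a non-specific shRNA from a lentiviral vector. MES control cells carried the same kind of shRNA and had been kept in 20 nM tamoxifen until the whole culture looked mesenchymal, and the labels give no number of days. Both groups therefore share the immortalized line, the Twist fusion and the shRNA, and tamoxifen and the time in culture cannot be told apart from the transition itself. The other samples are 5 AKAP8 knockdown libraries of the same line and 8 eCLIP and input samples. The libraries are named as biological replicates, with nothing on whether the cultures were started apart, so the p-values measure the spread between these 6 libraries. The study as a whole asked how the RNA-binding protein AKAP8 bears on the splicing that accompanies EMT.

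In an EMT, epithelial cells lose the cadherin-based junctions that hold them together, take up a front-rear shape and lay down fibrous matrix. The transition is also known as a splicing program: the epithelial regulators ESRP1 and ESRP2 favor epithelial forms of transcripts such as FGFR2, CD44 and CTNND1, and factors of the RBFOX and QKI families bind introns beside many of the exons that switch. A factor of this kind commonly promotes an exon when bound after it and represses the exon when bound before it.

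The junction reads of marker genes followed the labels in each library. All 7 epithelial markers were lower in MES and all 7 mesenchymal markers were higher. CDH1, the epithelial cadherin, had 4605, 5860 and 4879 reads in the EPI libraries and 150, 347 and 293 in the MES libraries. ESRP1 had 7374, 6683 and 7928 reads against 252, 494 and 638, and OCLN, a tight junction protein, 394, 416 and 392 against 22, 45 and 35. VIM, the mesenchymal intermediate filament, went from 26864, 35707 and 32857 reads to 112917, 102776 and 98613. FN1, the matrix protein fibronectin, had 910469, 1464237 and 1928038 reads in EPI and 3670386, 6580697 and 4640843 in MES, so the groups of each of these markers stood apart. CDH1 reads were still found in every MES library, and whether a few cells had kept the epithelial state or all cells had kept some CDH1 cannot be told apart in bulk RNA. Of the markers of other cell types, PTPRC, CD3E, CD14 and 4 endothelial genes had no skipped exon event listed, as had TWIST1 itself, so no value can be given for them.

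The amount of data was alike, with between 32705396 and 37640402 junction reads over skipped exon events per library, where a read that supports several events is counted in each. The gene levels of the libraries, described further below, separated by state. The first principal component of log2 scaled junction reads per gene took 80.8% of the variance. Its scores were -59.9, -64.0 and -56.1 for the EPI and 68.4, 62.6 and 49.0 for the MES libraries. The third MES library in the order of the tables lay closest to the EPI libraries. In splicing it was the MES library nearest to the EPI mean of percent spliced in (PSI) in 381 of 691 changed events. These are the skipped exon events described next, and the first and the second MES library were nearest in 132 and 178. The median distances from the EPI mean were 24.1, 22.2 and 18.8 percentage points in the listed order.

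Skipped exons (SE), which are either joined into the transcript or left out whole, were the most frequent type. PSI is the share of transcripts that include the exon, from inclusion and skipping junction reads corrected for the length of each form, and ∆PSI is MES minus EPI. An event was called changed at |∆PSI| of at least 10 points and an adjusted p under 0.05 in a limma-moderated quasi-binomial F test. Of 49330 SE events tested 691 changed, which is 1.4% of all, in 534 genes, which is 5.56% of the genes tested. Inclusion rose in MES in 381 events (0.772%) and fell in 310 (0.628%). The median |∆PSI| was 21.7 points among the changed events and 0.684 points among all tested. In 395 events the change was at least 20 points and in 45 at least 50 points. Complete switches were rare, since only 4 events went from a mean under 20% to over 80% and 4 the other way. The 3 libraries of each state did not overlap in 659 of the 691 changed events, against 10.6% of all events tested. The closest values on either side of the 10-point limit were 10.03 points among the changed events and 9.93 points among the 424 events that passed the adjusted p alone. The number of changed events was 450 without the first EPI library and 782 without the third MES library, the lowest and the highest of the 6 omissions. Several events can share an exon, and with 1 event for each of 39005 exons the count was 561.

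The largest rise was in ARHGEF11, an exchange factor that activates small GTPases. Its 96-nt coding exon at chr1:156908210-156908305 (GRCh37) had a PSI of 0% in each EPI library and of 89.2%, 87.5% and 95.8% in the MES libraries (∆PSI 90.8 points, adjusted p = 3.21e-29). Thus an exon without an inclusion read in EPI, where 0 against 100 skipping reads allows a PSI of up to 1.51% by counting error, was the main form in MES, on 32 to 103 reads per library. A 36-nt exon of MAGI1, a scaffold protein of epithelial junctions, went from 5.80%, 1.96% and 2.13% to 91.5%, 86.6% and 81.2% (∆PSI 83.1, adjusted p = 2.91e-18). EXOC7, a subunit of the exocyst that tethers vesicles to the plasma membrane, followed with 22.0%, 8.76% and 9.84% against 95.8%, 83.1% and 95.2% for a 93-nt exon (∆PSI 77.8). In all of these the EPI and MES libraries were far apart. A 289-nt, partly coding exon of CTNND1, the catenin that binds the inner part of cadherins, rose from a mean of 21.9% ± 3.44 (SD, n = 3) to 91.2% ± 4.35. The 57-nt exon of CLSTN1, a transmembrane protein of the cadherin superfamily that takes part in cargo transport, had 34.4%, 34.3% and 30.4% in EPI and 94.7%, 94.2% and 94.5% in MES (∆PSI 61.4, adjusted p = 4.27e-87), on 754 to 1024 reads per library. It was the most precise of the large rises, with an SD of 0.277 points in MES.

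The other exons of the 12 with the largest rise belonged to ARHGAP17, a GTPase-activating protein (62.0 points), OSBPL3, an oxysterol-binding protein (61), SCRIB, a polarity scaffold (59.3), ANXA6, a calcium-dependent membrane binder (56.3), MAP2K7, a kinase upstream of JNK, NFYA, a subunit of the factor that binds CCAAT boxes (56.2), and TUBB6, a beta tubulin (55.9). The spread was not equal among them. MAP2K7 had 71.3%, 47.5% and 93.4% in the MES libraries, on 14 to 52 reads per library, while OSBPL3 had 9.19%, 9.39% and 9.06% in EPI and 75.7%, 71.4% and 63.5% in MES. The ANXA6 exon is only 18 nt long and went from 18.5%, 17.9% and 17.9% to 77.8%, 71.2% and 74.2%.

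The largest fall was in CD44, the receptor for hyaluronan, whose variable exons sit in a row between the constant ones. The 204-nt exon at chr11:35232793-35232996 had a PSI of 87.8%, 86.2% and 88.1% in EPI and of 10.7%, 13.6% and 12.2% in MES (∆PSI -75.2), on at least 3173 reads per library. CD44 had 22 changed SE events, more than any other gene, and CTNND1 had 11, and the events of 1 gene share exons and reads. RALGPS2, an exchange factor for Ral GTPases, fell by 67.3 points at a 78-nt exon, from 96.1%, 93.5% and 88.0% to 14.4%, 28.5% and 32.8%. Values within a state differed little in CD44 and more in RALGPS2, but in neither did the states come near each other. USO1, which tethers vesicles to the Golgi, lost a 21-nt exon from 72.4%, 71.5% and 63.0% to 11.7%, 13.9% and 8.18%. CA12, a carbonic anhydrase, lost a 33-nt exon from 58.2%, 68.4% and 62.8% to 5.72%, 8.37% and 15%.

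Other large falls were partial. The 15-nt exon of ARHGEF10L, a further exchange factor for small GTPases, went from 93.3%, 100% and 100% to 43.8%, 49.8% and 49.9%. SLC37A2, a sugar phosphate carrier, had 27%, 58.4% and 37.4% in MES after at least 96.5% in EPI. Some values rest on few reads, in genes that were lower in MES. FXYD3, a regulator of the sodium pump, had 1 to 577 reads per library and a PSI of 49.5%, 0% and 71.0% in MES, and its adjusted p of 0.034 rose to 0.0721 without the first EPI library and to 0.604 and 0.113 without the first or the second MES library. SIGIRR, a brake on interleukin-1 receptors, had 14.3%, 50% and 57.9% on as few as 12 reads.

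**Figure D1:**
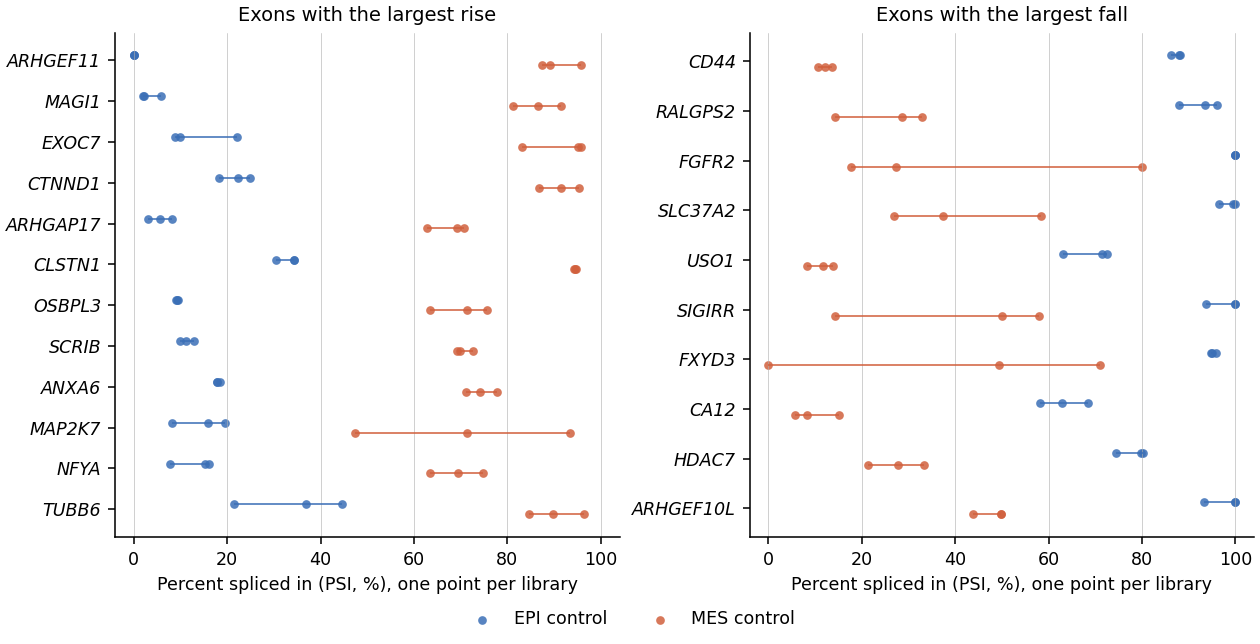
PSI (%) on the horizontal axis for the 12 exons with the largest rise (left) and for 10 of the 12 with the largest fall (right), 1 per gene, with a point for each of the 3 EPI control (blue) and 3 MES control (red) libraries and a line over their range. The states did not overlap in any of these exons, which were selected for that, and FGFR2, FXYD3, SIGIRR and MAP2K7 show the widest spread in MES.

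Short exons can be read whole. A few are printed because they are short and changed much or are long known from EMT, with the exon in capitals and 12 nt of intron on each side, in the direction of the transcript, from GRCh37.
MAGI1 (chr3:65433685-65433744, minus strand): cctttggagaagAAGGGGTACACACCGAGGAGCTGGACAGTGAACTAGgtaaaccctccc
ANXA6 (chr5:150490176-150490217, minus strand): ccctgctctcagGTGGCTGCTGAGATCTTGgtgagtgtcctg
SPAG9 (chr17:49053212-49053274, minus strand): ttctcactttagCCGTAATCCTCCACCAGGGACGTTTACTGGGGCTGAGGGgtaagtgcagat
USO1 (chr4:76716477-76716521, plus strand): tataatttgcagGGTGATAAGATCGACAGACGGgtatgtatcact
DNM2 (chr19:10919233-10919268, plus strand): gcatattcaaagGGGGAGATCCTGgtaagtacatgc
ENAH (chr1:225692681-225692767, minus strand): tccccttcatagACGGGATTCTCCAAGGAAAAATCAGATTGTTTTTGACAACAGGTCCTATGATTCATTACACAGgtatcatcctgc
All of these exons have a length that is a multiple of 3, so that adding or skipping them keeps the reading frame. SPAG9, a scaffold of the JNK pathway and of transport, gained its 39-nt exon, from 4.11%, 4.88% and 3.88% to 62.8%, 62.5% and 52.3%. DNM2, the dynamin that pinches off vesicles, skipped its 12-nt exon more often, from 94.6%, 93.9% and 95.2% to 56.9%, 56.1% and 49.3% (∆PSI -40.4). ENAH, an actin regulator, lost its 63-nt exon from 36.9%, 48.6% and 36.5% to 5.98%, 7.27% and 6.16% (∆PSI -34.2).

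FGFR2, the receptor for fibroblast growth factors, makes its epithelial form with exon IIIb and its mesenchymal form with exon IIIc, which encode alternative ends of an immunoglobulin-like domain and so set which ligands bind. Exon IIIb is shown in capitals, since its loss defines the switch of the receptor.
FGFR2 IIIb (chr10:123278184-123278355, minus strand): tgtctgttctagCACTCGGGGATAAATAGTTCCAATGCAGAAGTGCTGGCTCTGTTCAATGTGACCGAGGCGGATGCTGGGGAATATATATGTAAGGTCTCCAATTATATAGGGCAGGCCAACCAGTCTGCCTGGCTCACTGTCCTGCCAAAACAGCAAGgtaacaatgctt
Counted as a mutually exclusive pair (148 and 145 nt), the share of IIIb was 100%, 100% and 98.8% in EPI and 38.5%, 39.1% and 52.9% in MES (∆PSI -56.1, adjusted p = 3.44e-10). As a skipped exon IIIb had 100% in each EPI library and 27.3%, 17.6% and 80% in MES, on 7 to 54 reads. The pair thus gave a smaller spread than the exon alone, and the third MES library kept the most IIIb by both measures. The summed FGFR2 reads were lower in MES too (log2 fold change -2.75, adjusted p = 0.000273 from limma).

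A list of 39 genes with exons known to switch in EMT was examined as a group. Of the 38 with a tested event 36 had a changed one, with the largest event of 17 rising and of 19 falling, and the median |∆PSI| of these largest events over the 38 genes was 42.5 points. The largest event was taken for each, which raises that median. Against 5.56% of all genes this is a high share, but the list was written with such exons in mind and with earlier results of these data known, so the count is a description. The remaining genes were ITGA6, an integrin subunit of hemidesmosomes, at -9.52 points (98.7%, 97.7% and 97.9% against 88.1%, 87.3% and 90.3%, adjusted p = 3.12e-18) and RAC1, a small GTPase, at -4.50 points (12.1%, 14.9% and 14.3% against 9.48%, 9.10% and 9.22%, adjusted p = 0.00464). Both passed the adjusted p and missed the limit of 10 points, and ITGA6 reached -10.4 points without the third MES library.

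Among the exons of this list that rose were those of SLMAP, a tail-anchored membrane protein (∆PSI 52.0), MPRIP, which brings myosin phosphatase to actin (49.0), CASK, a membrane-associated guanylate kinase (38.3), and MYO18A, an unconventional myosin (27). MPRIP had 24.5%, 25.5% and 27.9% in EPI and 77.9%, 78.5% and 68.4% in MES. Among those that fell were the exons of ADD3, an adducin that caps actin (-48.4), SLK, a Ste20-like kinase (-47.4), KIF13A, a kinesin (-44.0), MBNL1, itself a splicing factor (-41.8), RAI14, an actin-associated protein (-39.9), MAP3K7, the kinase TAK1 (-29.1), and NUMB, an endocytic adaptor (-27.3). SLK was among the most precise, with 51.4%, 52.0% and 49.9% in EPI and 3.64%, 3.59% and 4% in MES. Some calls depended on the test or on single libraries. With limma on the logit of PSI the adjusted p was 0.231 for NUMB, 0.217 for MYO18A, 0.119 for CASK and 0.0675 for MBNL1, which ended these calls. PARD3 (17.7 points, adjusted p = 0.01) had an adjusted p of 0.11, 0.07, 0.0924 and 0.104 on leaving out, in turn, the first or the third EPI library and the first or the second MES library. The calls of TCF7L2, PLEKHA1, GIT2 and NF2 were each lost on omitting any of several libraries, with adjusted p of up to 0.151 without the second EPI library for TCF7L2, 0.217 without the first for PLEKHA1, 0.205 without the third for GIT2 and 0.147 without the first for NF2. LSR (29.2 points) lost its call without the second MES library, with 23.2 points and an adjusted p of 0.395.

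**Figure D2:**
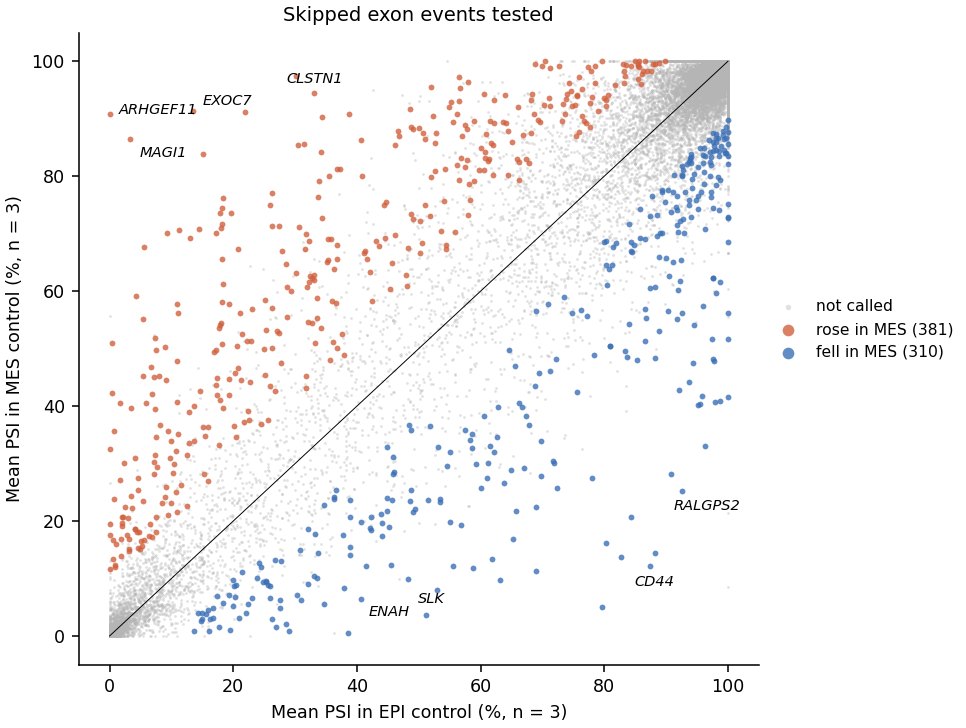
Mean PSI (%, n = 3) in EPI control (horizontal) and in MES control (vertical) for the SE events tested, with events that rose in red (381), events that fell in blue (310) and events not called in grey; the line marks equal PSI. Changed events lie on both sides of the line over the whole range, and ARHGEF11 at 0% against 90.8% is the point farthest from it.

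The genes were also grouped by what their proteins do, and the counts stand against 5.56% of all genes tested. Of 46 tested genes of the actin cytoskeleton 24 had a changed exon (52.2%), with 11 rising and 13 falling, and of 32 genes for junction and polarity proteins 11 had one (34.4%). These groups overlap with the list of known EMT exons and were drawn up with results known. In the lists made for gene level the shares were lower, with 3 of 25 epithelial junction genes (12%) and 2 of 17 keratins and hemidesmosome genes (11.8%). MYO9A, a myosin, gained an exon of 195 nt (18.2% ± 3.54 to 71.7% ± 8.99, SD, n = 3). ACTN1, which bundles actin filaments, gained 66 nt with 39.9%, 49.1% and 67.9% in EPI and 97.4%, 96.8% and 77.0% in MES, while SPTAN1, a spectrin, fell by 27.7 points and the septin SEPT6 by 47.1 points. Among the polarity genes DLG1 had 41.0%, 48.0% and 44.1% against 78.6%, 68.7% and 77.4% at a 100-nt exon. ABI1, which links membrane signals to actin branching, had 56.9%, 57.8% and 56.5% against 89.6%, 84.6% and 86.8%.

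Against the same 5.56% of all genes, of 46 kinases and phosphatases 17 had a changed exon (37%), of 55 genes of membrane traffic 18 (32.7%), of 44 genes for transcription and chromatin 12 (27.3%) and of 43 regulators of small GTPases 10 (23.3%). These groups too were drawn up with results known, so their shares are a description. A gene with more tested events also has more occasions for a changed one. The 46 kinases and phosphatases held 432 tested events, against 49330 in all 9609 genes. MARK3, a kinase of microtubule-associated proteins, gained a 27-nt exon (5.44% ± 1.04 to 55.2% ± 4.46), and its relative MARK2 lost one of 162 nt (64.9% ± 5.47 to 28.9% ± 1.20). KIF21A, a kinesin, gained 21 nt (10.9% ± 2.68 to 57.7% ± 3.04) and VPS29, of the retromer that sorts endosomal cargo, 12 nt (29.3% ± 2.86 to 60.1% ± 3.70). TEAD1, the DNA-binding partner of YAP1, gained a 12-nt exon with 27.5%, 11.9% and 12.4% against 70.5%, 72.2% and 67.6%. Thus the same kind of protein could gain an exon in 1 gene and lose it in another.

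Splicing regulators themselves had a changed exon in 5 of 41 genes (12.2%, against 5.56% of all): MBNL1, MBNL2, HNRNPD, HNRNPA2B1 and PTBP1. The 36-nt exon of HNRNPA2B1 had 13.0%, 12.6% and 12% in EPI and 24.8%, 23.2% and 19.8% in MES (∆PSI 10.1). The PTBP1 exon had 39.5%, 36.6% and 67.8% against 56.0%, 72.3% and 60%, so its states overlapped. None of the 40 tested genes of the extracellular matrix and none of the 25 of the TGF-beta and BMP pathway had a changed exon, where 5.56% of all genes had one, with median |∆PSI| of 0.112 and 0.585 points over their events. Of 37 genes for cytosolic ribosomal proteins only RPS24 had one, a 22-nt exon that went from 14.2%, 11.6% and 12.9% to 33.3%, 35.1% and 32.4%.

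Changed exons were also described by length and frame. Length enters PSI through the correction for the length of each form, and with plain shares of reads 640 SE events changed in place of 691, GIT2 having -8.44 points in place of -14.75. With 1 count per exon, 350 exons rose and 287 fell among 39005. Exons that rose were short, with a median of 81 nt against 115 nt for those that fell and 116 nt for all tested. Exons of up to 27 nt made up 6.0% of the exons that rose (21), 3.48% of those that fell (10) and 0.967% of all. A fairer reference is the 3207 exons with a mean PSI between 10% and 90% that were not called, of which 1.90% were as short. Among coding exons 71.4% of those that rose and 70.5% of those that fell had a length that is a multiple of 3, against 56.2% of the uncalled alternative exons and 44.5% of all. Of the 260 exons of up to 27 nt in frame 20 rose (7.69%) and 10 fell (3.85%), while of 117 out of frame 1 rose and 0 fell. Among the exons of 300 nt and over in frame the order was turned, with 19 that fell (2.95%) and 7 that rose. Exons that fell lay between shorter introns, with medians of 1012 nt before and 1100 nt after the exon, against 2212 and 2432 nt for exons that rose and 2568 and 2459 nt for the uncalled alternative exons.

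**Figure D3:**
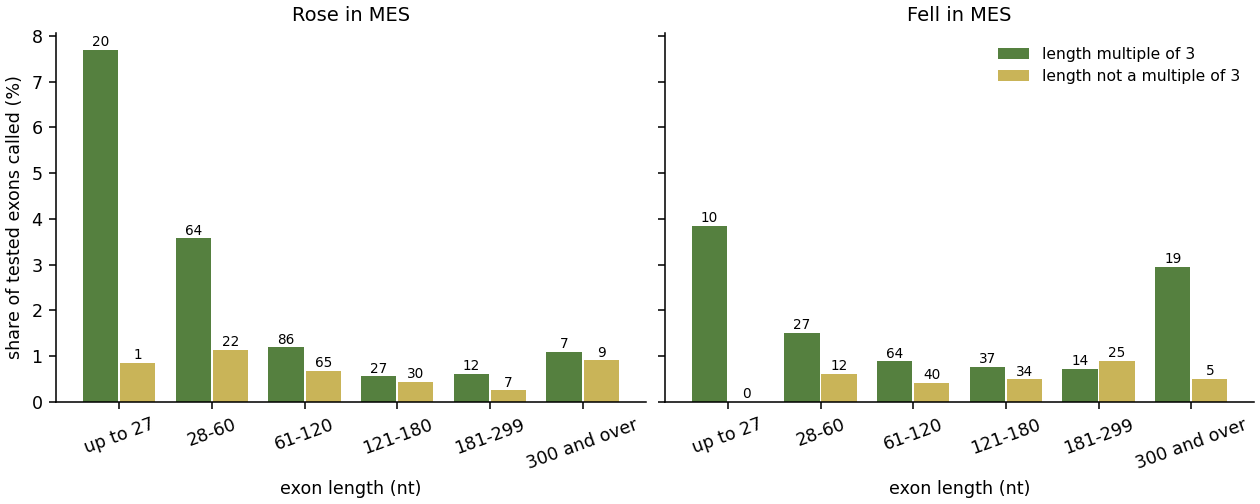
Share (%) of tested exons that rose (left) and fell (right) in MES by exon length in nt, with exons whose length is a multiple of 3 in green and the others in yellow, and the number of called exons above each bar. The highest bar is that of in-frame exons of up to 27 nt, of which 7.69% rose, and the share declines with length up to 180 nt among the in-frame exons that rose.

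The introns beside the exons were searched for short motifs of known splicing factors, on the transcript strand only: GCATG, bound by RBFOX proteins, ACTAA, bound by QKI, GGTGG, of the ESRP type, TCTCTC, bound by PTBP1, and TGTGTG, a UG repeat. None of these holds another. The windows were 250 nt, from 20 nt before the exon upward and from 6 nt after it downward, for exons with introns of at least 300 nt on both sides (320 that rose, 175 that fell, 2649 uncalled alternative exons and 30930 in all). GCATG was found after 30.6% of the exons that rose, 25.1% of those that fell and 21.4% of all. Before the exon it was found for 19.4% of those that rose, 33.7% of those that fell and 21.4% of all. The uncalled alternative exons had 22.2% before and 22.3% after. Among the 67 exons that fell by over 25 points the share before the exon was 44.8% (30 exons), and among the 108 that fell by 10 to 25 points 26.9% (29). TCTCTC before the exon was found for 15.9% of those that rose, 14.3% of those that fell, 9.78% of the uncalled alternative exons and 8.49% of all, and after the exon for 8.44%, 9.71%, 8.64% and 8.56%. ACTAA stood before 14.7% of the exons that rose, 23.4% of those that fell, 19.25% of the uncalled alternative exons and 19.8% of all. After the exon its shares were 20.6%, 22.9%, 18.3% and 19.5%. GGTGG stood after 26.25% of the exons that rose and 34.3% of those that fell, against 29.0% of the uncalled alternative exons and 28.9% of all. Before the exon its shares were 26.6%, 20.0%, 26.2% and 25.95% in the same order. By size, GGTGG followed 37% of the exons that fell by 10 to 25 points and 29.9% of those that fell by over 25 points. TGTGTG after the exon differed least, with 13.1% in both groups and 12.8% of the uncalled alternative exons. The GC content of the windows had medians between 39.8% and 42.8% over the groups that rose or fell, and its part in these shares was not tested.

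The introns of named exons show where the letters lie. The first set, of introns that follow exons that rose, begins at the splice site after the exon, with each GCATG in capitals.
MAGI1 intron (chr3:65433617-65433696, minus strand): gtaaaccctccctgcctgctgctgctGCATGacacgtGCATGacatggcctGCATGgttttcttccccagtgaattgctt
NFYA intron (chr6:41048637-41048756, plus strand): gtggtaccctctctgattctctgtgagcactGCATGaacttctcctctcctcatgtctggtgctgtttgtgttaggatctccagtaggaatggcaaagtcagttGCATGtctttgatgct
CLSTN1 intron (chr1:9797476-9797555, minus strand): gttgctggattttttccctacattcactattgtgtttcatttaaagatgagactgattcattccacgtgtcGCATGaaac
MPRIP intron (chr17:17083984-17084063, plus strand): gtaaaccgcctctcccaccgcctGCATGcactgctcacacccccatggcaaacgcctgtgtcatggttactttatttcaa
MYO18A intron (chr17:27412522-27412621, minus strand): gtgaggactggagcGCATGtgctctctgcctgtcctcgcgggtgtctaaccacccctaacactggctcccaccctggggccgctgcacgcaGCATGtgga
MAGI1 has GCATG 3 times within its first 60 nt, and in CLSTN1 and MPRIP the first copy lies 72 and 24 nt after the exon. The second set, of introns that precede exons that fell, ends at the splice site before the exon.
SLK intron (chr10:105770394-105770573, plus strand): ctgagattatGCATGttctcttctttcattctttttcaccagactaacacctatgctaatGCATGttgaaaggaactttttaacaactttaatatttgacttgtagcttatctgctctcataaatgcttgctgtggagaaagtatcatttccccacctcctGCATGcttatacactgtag
MAP3K7 intron (chr6:91254352-91254511, minus strand): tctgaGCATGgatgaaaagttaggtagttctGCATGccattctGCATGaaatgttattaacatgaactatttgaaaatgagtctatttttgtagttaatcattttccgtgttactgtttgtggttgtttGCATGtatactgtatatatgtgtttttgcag
ADD3 intron (chr10:111891923-111892062, plus strand): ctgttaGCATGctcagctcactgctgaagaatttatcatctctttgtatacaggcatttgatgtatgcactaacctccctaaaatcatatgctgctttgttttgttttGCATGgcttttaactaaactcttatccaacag
RAI14 intron (chr5:34813479-34813678, plus strand): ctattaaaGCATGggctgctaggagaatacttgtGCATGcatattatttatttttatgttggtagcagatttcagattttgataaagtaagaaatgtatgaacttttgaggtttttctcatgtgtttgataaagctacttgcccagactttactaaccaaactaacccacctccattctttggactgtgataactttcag
KIF13A intron (chr6:17771450-17771549, minus strand): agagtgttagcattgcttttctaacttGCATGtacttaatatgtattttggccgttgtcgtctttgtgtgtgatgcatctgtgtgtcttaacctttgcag
MAP3K7 has 4 copies and SLK has 3, and in SLK, MAP3K7 and ADD3 the last copy starts 19, 31 and 32 nt before the exon. These introns were chosen for having the motif on that side, and other named exons have it on the other side: SCRIB and ARHGAP17, which rose, have copies before the exon, CA12 and MBNL1, which fell, have them after it, and MAP3K7 and KIF13A have a copy there too. Of the 20 named exons that rose and have introns of at least 300 nt on both sides, 8 had GCATG within 300 nt after and 4 within 300 nt before the exon, and of the 22 that fell 7 had it after and 11 before. A match of letters is not a binding site. The CD44 exon has GCATG 223 nt after it, and no copy was found beside the exons of ARHGEF11, USO1 or ENAH in these windows.

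**Figure D4:**
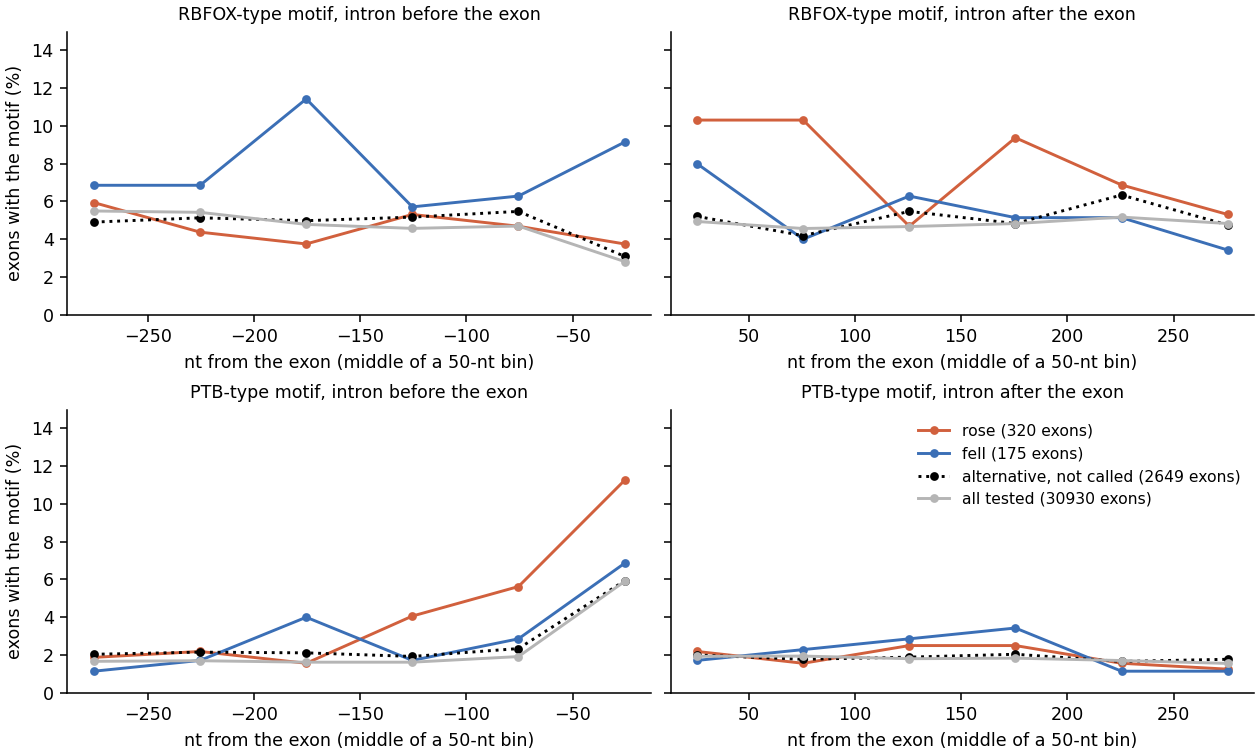
Share (%) of exons with the motif in each bin of 50 nt by distance (nt) from the exon, for GCATG (top) and TCTCTC (bottom), before (left) and after (right) the exon, for exons that rose (red), that fell (blue), uncalled alternative exons (dotted) and all tested (grey). GCATG lay in the first 50 nt after 10.3% of the exons that rose, against 4.94% of all, and 151 to 200 nt before 11.4% of the exons that fell, against 4.79%.

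Mutually exclusive exons (MXE), of which a transcript takes either, changed in 278 of 12148 events (2.29%), 105 toward the exon nearer the start of the transcript and 173 away from it, in 216 genes. This balance turned with the limit and the test, to 45 against 40 events at a ∆PSI of at least 20 points and to 21 against 13 with limma on the logit of PSI. An exon of the pair was also called as a skipped exon in 76 of the changed events (27.3%) and in 2.06% of the MXE events that were not called. In CD44 the share of the first exon of a pair went from 91.1%, 90.4% and 90.4% to 45.1%, 44.7% and 45.1% (∆PSI -45.7, adjusted p = 2.43e-75). A CTNND1 pair went from 9.09%, 2.52% and 7.32% to 51.4%, 54.0% and 49.6%. A TCF7L2 pair, in the transcription factor that acts with beta-catenin, rose from 28.7%, 5.99% and 0% to 57.9%, 74.2% and 54.7%. MEG3, a long noncoding RNA, fell from 61.5%, 81.2% and 70.9% to 27.9%, 4.49% and 17.7%. AFMID, an enzyme of tryptophan breakdown, rose by 45.2 points, and its adjusted p of 0.00122 became 0.0512 without the second MES library. The number of changed MXE events was 165 without the first EPI library, 177 without the second MES library and 425 without the third EPI library.

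Alternative 5′ splice sites (A5SS), where the end of an exon shifts, changed in 70 of 1631 events (4.29%), the highest share of the 5 types, with 22 rising and 48 falling toward the shorter form. This rank depended on the test and on single libraries. With limma on the logit of PSI 6 of 1631 A5SS events changed, a lower share than 234 of 49330 SE events. Without the third EPI library 52 of 1624 did, a lower share than 425 of 12142 MXE events. The largest was a 22-nt extension of a CTNND1 exon, used in 93.7%, 96.6% and 95.1% of EPI and 15.8%, 11.5% and 17.9% of MES transcripts (∆PSI -80.1, adjusted p = 7.45e-44). NCOR1, a nuclear corepressor, rose at a 39-nt extension from 76.3%, 66.5% and 72.7% to 96.5%, 98.1% and 97.6%. In both genes the states lay far apart. The number was 46 without the first EPI library.

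Alternative 3′ splice sites (A3SS), where the start of an exon shifts, changed in 33 of 2591 events (1.27%), with 12 rising and 21 falling, a balance that turned to 11 against 9 without the third EPI library. EXOC7 had the largest, an 84-nt extension with 100%, 89.7% and 62.0% in EPI and 3.19%, 25.2% and 14.5% in MES, on only 5 to 35 reads, and its adjusted p of 0.00176 became 0.117 without the second EPI library. ARID1A, a chromatin remodeler, gained the site that adds 3 nt, with 30.6%, 25.3% and 36.6% against 56.0%, 46.4% and 45.6%. The number of changed A3SS events was 14 and 20 without the first or the third EPI library, 6 and 10 without the first or the second MES library, and 70 without the third MES library. Of the 8 A3SS events with the largest changes only that of CEP170B, a centrosomal protein, kept its call under each omission, with 56.8%, 55.5% and 68.9% against 93.8%, 82.9% and 87.2%.

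Retained introns (RI) changed in only 6 of 1751 events (0.343%). The intron of TMEM138, a ciliary membrane protein, was kept in 58.1%, 66.7% and 64.5% of EPI and 97.0%, 93.0% and 88.0% of MES transcripts. Introns of OCEL1 (∆PSI 44.5) and IMP4, of the machinery for ribosome assembly (30.7), also rose, and those of NFATC4, a transcription factor (-53.2), ATXN2L (-21.0) and P3H1, a collagen prolyl hydroxylase (-15.2), fell. Each of these calls was lost on omission of at least 1 library. The number was 0 without the first EPI library, with 83 events past the ∆PSI limit at a p under 0.05 before adjustment, 1 without the first or the second MES library, and 38 without the third MES library.

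Gene levels were read from the junction reads summed over the SE events of a gene, scaled by size factors and tested with limma on log2(value + 1), a scale that understates the change of genes with few reads. Such sums cover only genes with an SE event and move with splicing as well as with RNA level. Of 10323 genes tested 1654 changed by more than 2-fold at an adjusted p under 0.05 (16.0%), 703 higher (6.81%) and 951 lower (9.21%) in MES. The states did not overlap in 5022 genes, or 48.6%. Scaling to the total of reads in place of size factors moved the median log2 fold change of all genes from 0.01 to -0.10 and gave 600 higher and 1068 lower genes.

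Epithelial genes were lower in MES. Of 25 tested genes of cell junctions 16 were lower and 1 was higher, with a median log2 fold change of -1.61. Of 17 keratins and hemidesmosome genes 13 were lower and none was higher, with a median of -2.01. Of 9 epithelial transcription factors 7 were lower and 1 was higher, and of 14 polarity genes 4 were lower and none was higher. EPCAM, an epithelial adhesion molecule, fell by 5.45 on the log2 scale (standard error 0.168, adjusted p = 1.65e-08), and CLDN7, a claudin, by 5.30. The laminin chains LAMA3 and LAMB3 of the epithelial basement membrane had log2 fold changes of -2.88 and -3.0. GRHL2 and TP63, transcription factors of the epithelial and basal state, had log2 fold changes of -4.67 and -2.59. CRB3, LLGL2 and PRKCZ, all of the polarity machinery, fell by 4.83, 3.98 and 2.89, while PARD3 (-0.27) and SCRIB (-0.12) were not called. The exceptions that rose were KLF4, a transcription factor, with 55.9, 50.6 and 47.1 scaled reads in EPI and 276, 216 and 187 in MES, and PVRL4, a nectin, with a log2 fold change of 1.54.

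Genes of the extracellular matrix were higher. Of 42 tested 30 were higher and 1, MFAP5, was lower, with a median log2 fold change of 2.75, and the numbers were 28 and 1 with scaling to the total. COL3A1, a fibrillar collagen chain, rose the most of all genes, from 14.2, 11.7 and 12.3 scaled reads in EPI to 47804, 44996 and 22913 in MES (log2 fold change 11.39, standard error 0.255, adjusted p = 2.41e-09). The third MES library had the lowest level of the MES libraries and was still far above EPI. DCN, the proteoglycan decorin, had 13.3, 4.86 and 9.22 against 20415, 20756 and 9434. COL6A2 had 10.4, 34.0 and 54.3 against 32951, 37146 and 34012, and FBLN5, which organizes elastic fibers, rose by 8.84 on the log2 scale. Outside the matrix list TBX18, a transcription factor of mesenchymal tissue, had 6 reads in all EPI libraries and 10451 in MES, and CADM3, an adhesion molecule, 31 and 26536. Among the largest falls were SLPI, a secreted protease inhibitor (2273 reads in EPI, 12 in MES), the cytokine IL1B (2416 and 29), the epithelial factor EHF (542 and 4) and CASP14, of the keratinocyte program (4178 and 64).

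Of 28 tested genes for mesenchymal adhesion and cytoskeleton 14 were higher and 2 lower. CDH2, the cadherin that takes the place of CDH1, had 17, 20 and 28 reads in EPI and 693, 894 and 711 in MES (log2 fold change 5.14), and CDH11 rose by 7.67. The actin-linked genes MYL9, TPM1 and CALD1 rose by 4.39, 1.87 and 1.13. The 2 lower genes were NRP2 (-1.99) and CD44 (-1.57), and with a single SE event for CD44 its log2 fold change was -0.50 and was not called. The many variable exons of CD44 enter the sum. Among 5 tested transcription factors that drive EMT, 3 were higher. ZEB1 had 8, 4 and 33 reads in EPI and 981, 995 and 1267 in MES, ZEB2 0, 3 and 4 against 547, 279 and 334, and PRRX1 had 3 reads in all EPI libraries and 952 in MES. In the TGF-beta and BMP pathway 5 of 25 genes were higher and 3 lower. TGFB2, a ligand, had 38 reads in EPI and 194 in MES, and TGFBR3, a coreceptor, 8 and 996. LTBP1 (4.13) and LTBP2 (1.5), which hold latent TGF-beta in the matrix, rose while LTBP3 (-1.54) and LTBP4 (-1.06) fell, and INHBA fell by 2.19. The call of LTBP4 was lost without the first MES library (-0.90) or second (-0.89), and with a single SE event per gene that of LTBP3 was lost (-1.06, adjusted p = 0.0592 from limma), as was that of LTBP4. TGFBR1, TGFBR2 and SMAD3 were not called, with log2 fold changes of 0.43, 0.17 and 0.00.

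**Figure D5:**
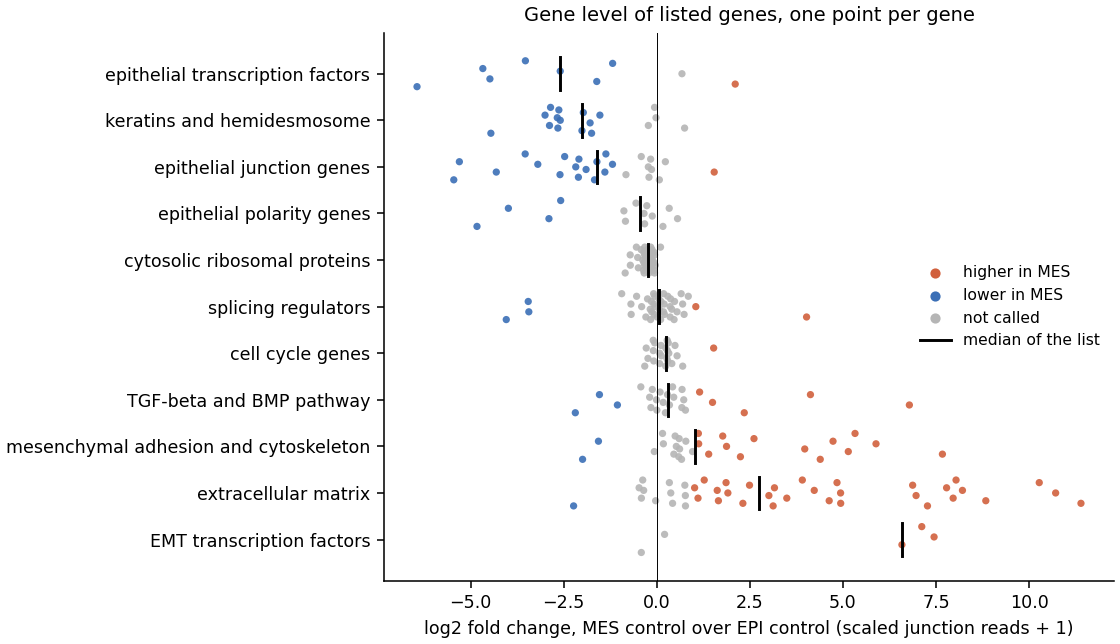
log2 fold change of gene level, MES over EPI control, on the horizontal axis for the genes of 11 lists, 1 point per gene, red where higher, blue where lower and grey where not called, with a black bar at the median of each list. The medians run from -2.59 for epithelial transcription factors to 6.58 for 5 transcription factors of EMT, and those of ribosomal, splicing and cell cycle genes lie between -0.23 and 0.24.

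Ribosomal and cell cycle genes, taken for comparison, moved little, and interferon response genes moved in both directions. None of 37 cytosolic ribosomal protein genes was called (median -0.23), although 1 passed without the third EPI library, and 1 of 24 cell cycle genes was higher (median 0.24). Of 11 interferon response genes 2 were higher and 4 lower, of 5 estrogen receptor targets 0 were higher and 1, CA12, was lower, and of 2 immune markers with a value CD68 was lower, with 678, 884 and 701 reads in EPI and 357, 346 and 369 in MES. Its log2 fold change of -1.02 lost the call without the second EPI library (-0.91) and without the first or the second MES library, where it lay just short of the 2-fold limit.

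Splicing regulators as a group had a median log2 fold change of 0.07, with 2 of 42 higher and 3 lower. The 3 lower ones are epithelial: ESRP1 with -4.04 (standard error 0.294, adjusted p = 3.69e-06), ESRP2 with -3.45, from 851, 869 and 651 to 67.4, 70.0 and 75.3 scaled reads, and RBM47 with -3.43. The higher ones were KHDRBS3, of the STAR family to which QKI belongs, from 51.2, 40.8 and 31.8 to 698, 811 and 541 scaled reads, and QKI itself, from 1601, 1259 and 1540 to 3179, 2945 and 2942 (log2 fold change 1.05). The change of QKI lay at the limit and was 0.94 with scaling to the total and 0.94 without the second EPI library, which ended the call. RBFOX2, whose motif is GCATG, had 0.36 (adjusted p = 0.0366) and HNRNPM, a regulator of CD44 splicing, 0.69 (adjusted p = 0.00307), both below the 2-fold limit. MBNL1 had 0.73, PTBP1 -0.13 and AKAP8 -0.07 (adjusted p = 0.867). AKAP8 reads were 324, 392 and 283 in EPI and 460, 237 and 262 in MES, and the states overlapped.

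Genes with changed exons were called at gene level about as often as other genes. Of 534 genes in which an SE event had changed, 76 were called at gene level (14.2%, with 34 higher and 42 lower), and of the 9075 without one 1371 were (15.1%). The median absolute log2 fold changes were 0.36 in both. ARHGEF11, MAGI1, CLSTN1, SPAG9, ENAH and MPRIP, all with ∆PSI over 30 points in size, had log2 fold changes of 0.63, 0.49, -0.22, -0.27, 0.06 and 0.00, none of them called. ANXA6 did both, with a gene-level change of 3.01.

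The same exons could be read in the AKAP8 knockdown libraries, 3 of EPI and 2 of MES cells, which share no library with the comparison above. Among the 622 changed SE events measured there 609 (97.9%) differed between MES and EPI in the same direction as in the controls, against 54.4% of 28962 tested events, and 479 differed by at least 10 points. The median difference was 21.4 points in the controls and 16.9 points in the knockdown libraries, and the events had been chosen by their size in the controls. Of the 345 with at least 20 points in the controls 341 had the same direction. MAGI1 had 12.5%, 16.2% and 25.4% in the EPI and 92.5% and 91.2% in the MES knockdown libraries. CD44 had 85.8%, 81.1% and 83.7% against 7.12% and 8.76%, and SLK 49.2%, 57.1% and 45.5% against 1.81% and 2.41%. CLSTN1 had 60.2%, 58.8% and 54.8% against 96.1% and 94.8%, so its EPI values lay above the 34.4%, 34.3% and 30.4% of the EPI controls and the difference between states was 37.5 points in place of 61.4. MYO18A had a difference of 9.04 points there against 27 in the controls, and PLEKHA1 2.02 against 20.6.

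AKAP8 binding sites from eCLIP, which maps where a protein is crosslinked to RNA, were set beside the exons. A peak from EPI cells lay within 1000 nt of 5.71% of the exons that rose (20), 5.92% of those that fell (17), 4.02% of the uncalled alternative exons and 3.24% of all. A peak from MES cells lay near 6.57% of the exons that rose (23), 2.44% of those that fell (7), 3.12% of the uncalled alternative exons and 2.27% of all. Most changed exons thus had no peak within that distance, and how far gene level sets whether a peak is found was not tested.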

How the data were processed

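The authors aligned stranded paired-end reads of poly(A) RNA to GRCh37 with STAR 2.6.1a, and rMATS counted the junction reads of annotated events. The deposited tables give, per event and library, inclusion and skipping junction read counts and the effective length of each form, with no other normalization. The authors' eCLIP peak positions were used as deposited. Their gene table (featureCounts 1.5.0, DESeq2) has no usable gene symbols, and it was not used. Neither were the authors' p-values, FDRs and differences in the rMATS tables, nor 14 columns of per-sample values, mainly their own PSI.

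PSI was recomputed per library. An event needed a mean of 20 junction reads over the libraries. The test was a quasi-binomial likelihood-ratio F test, 1 probability per state, with the dispersion moderated by limma 3.58.1 (squeezeVar, robust) in R 4.3.3 and Benjamini-Hochberg adjustment within the event type. A moderated quasi-binomial test was used because an event gives inclusion and skipping reads rather than a count per gene. Gene sums were scaled by median-of-ratios size factors, kept at 10 or more in at least 2 libraries, and tested with limma (trend) at an absolute log2 fold change over 1. Tests were checked on simulated data. Exon coding status came from the Gencode annotation on GRCh37, and sequences from that genome.

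Named exons are the 12 largest rises and 12 largest falls among changed SE events whose states did not overlap, 1 per gene, 4 each way for other event types, and the exons known from EMT. Named genes are the 12 largest changes each way and list members. Other genes named from the functional groups are examples from them. The members and lists were chosen with earlier results of these data known. Alternatives covered the dispersion, the test, read and ∆PSI limits, scaling, pseudocount and omission of each library. The tables list the libraries of a state without naming them, so they are called by their place in the list. A few members and 1 exon sequence are not reported here.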

Additional observations from a re-analysis of the deposited data

How the results depend on the processing

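No paired analysis was possible because the tables do not say which listed library is which replicate. No named event or gene that was called became called in the opposite direction. Small gene-level changes that were not called can change sign. The median log2 fold change of the splicing regulators went from 0.07 to -0.04 with scaling to the total. The balance of rises and falls turned from 105 against 173 MXE events to 45 against 40 at a ∆PSI limit of 0.2 and 21 against 13 with logit PSI. For A3SS events it turned from 12 against 21 to 11 against 9 without the third EPI library. Logit PSI with limma, in place of the quasi-binomial test, gave fewer changed events: 234 SE, 34 MXE and 6 A5SS, and 0 RI and 0 A3SS (81 and 94 past the ∆PSI limit at a p under 0.05 before adjustment). A ∆PSI limit of 0.2 left 395 SE, 85 MXE, 12 A3SS and 30 A5SS events, and 0.05 gave 490 MXE events. RI events came to 2 with a deviance dispersion and 2 without robust moderation. Omitting single libraries gave 450 to 782 SE, 165 to 425 MXE, 0 to 38 RI, 6 to 70 A3SS and 46 to 76 A5SS events, and 1491 to 1802 genes. Without a fold limit 3549 genes passed. Of events changed by at least 20 points, 98.84% kept their direction in the knockdown libraries. Among named exons and other events 403 of the values with a library omitted stayed on their side of the limits, 70 lost and 1 gained a call, and under the other settings 687 stayed, 59 lost and 1 gained one. For genes 1789 stayed, 18 lost and 9 gained, and 2669 stayed, 9 lost and 47 gained under the other settings, of which reads corrected for form length were chosen after seeing the data. FXYD3, on 1 to 577 reads per library, lost its call under 3 of the omissions, and PARD3, on 232 to 378 reads, under 4. The cause of these shifts was not tested.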
